A study of Mus musculus with 6 samples.

Results

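Here, 9 genes that lie beside Hira on mouse chromosome 16 are described in embryonic stem (ES) cells with and without a working Hira gene. They are Slc25a1, Zdhhc8, Ranbp1, Trmt2a, Dgcr8, Txnrd2, Gnb1l, Cdc45 and Mrpl40, in chromosome order, with Hira just beyond Mrpl40. They were listed for their place beside Hira, with earlier results of these data known. All 9 have at least 1 probe set with a single gene symbol, 10 probe sets in all of 35557 on the array. Probe sets above 3.78 on the log2 scale in 3 or more arrays were tested, which kept 25142 probe sets and all 10 of the neighbours. Total RNA was hybridised to Affymetrix Mouse Gene 1.0 ST arrays, 3 from the parental line w9.5 (genotype WT) and 3 from Cl34, a Hira-/- ES cell line, called Hira-null below. No drug or other agent is named for either line, and both were grown in the same serum medium with leukaemia inhibitory factor. According to the series text, undifferentiated cells were collected over a range of confluence, but the confluence of each array is not labelled. Cl34 is 1 line, so an effect of Hira loss and any other difference between the lines cannot be told apart. The labels call the arrays biological replicates and name no separate cultures, so the p-values rest on variation among arrays that may be technical.

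This stretch of chromosome 16 corresponds to the human region that is deleted in DiGeorge syndrome, and Hira is one of its genes. The genes are packed closely and several share the DNA between their start sites. Their products do different work: Dgcr8 guides the nuclease Drosha to microRNA precursors, Ranbp1 helps to switch off the transport GTPase Ran, Trmt2a methylates uridine in transfer RNA, and Cdc45 is a part of the helicase that unwinds DNA during replication. Mrpl40 belongs to the large subunit of the mitochondrial ribosome, Slc25a1 exports citrate from mitochondria, Txnrd2 is the mitochondrial thioredoxin reductase, Zdhhc8 attaches palmitate to proteins, and Gnb1l is a WD-repeat protein that works with the TTT complex in the maturation of PIK-like kinases.

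Within this group, Ranbp1 and Trmt2a start back to back, as do Mrpl40 and Hira itself, and Cdc45 and its neighbour Ufd1. The genes of each pair are set side by side below. The DNA between the start sites is shown for Mrpl40 with Hira and for Ranbp1 with Trmt2a. The sequences and their coordinates are RefSeq's for the build GRCm38.p6, in which 1 promoter window was found for each of the 9 genes and for Hira. Each line reads 5′ to 3′ on the plus strand from the first base of the left gene, which is transcribed to the left, to the first base of the right gene.
Mrpl40 to Hira, chr16:18876637-18876750: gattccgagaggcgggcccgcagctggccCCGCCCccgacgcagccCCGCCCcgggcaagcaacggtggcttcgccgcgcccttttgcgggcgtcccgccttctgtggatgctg
Ranbp1 to Trmt2a, chr16:18248694-18248883: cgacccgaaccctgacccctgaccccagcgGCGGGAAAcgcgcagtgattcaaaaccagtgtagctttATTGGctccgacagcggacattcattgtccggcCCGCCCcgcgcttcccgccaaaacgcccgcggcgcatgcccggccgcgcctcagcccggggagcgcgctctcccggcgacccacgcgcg
Capitals mark matches to the GC box GGGCGG, the CCAAT box and the E2F letters TTTCCCGC, on either strand. The start sites of Mrpl40 and Hira are 113 bases apart, and the 114 bases shown hold 15 CpG dinucleotides and GC boxes at positions 30 and 47. The start sites of Ranbp1 and Trmt2a are 189 bases apart, and the 190 bases shown hold 28 CpG dinucleotides. Between them lie the E2F letters at position 31, a CCAAT box at position 69 and a GC box at position 102, none of which overlap.

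The promoter windows of the 9 genes, each 300 bases long with 250 before the start and 50 after it, held 11 CpG dinucleotides at Cdc45 to 43 at Dgcr8, against a median of 7.0 over 32851 windows of that length. Matches to any of the 4 E2F octamers searched (TTTGGCGC, TTTCCCGC, TTTCGCGC and TTTGCCGC, both strands) were in the Ranbp1 and Trmt2a windows, which are largely the same DNA, and in 2.26% of all windows. CCAAT was present in the windows of Slc25a1, Ranbp1, Trmt2a, Dgcr8 and Cdc45, with 4 matches at Dgcr8, and in 37.4% of all windows. The GC box was present in all 9 windows and in 35.7% of all windows, and the letters TATAAA were present at Cdc45 and in 13.6% of all windows. A match is a description of letters and does not show that a factor binds there.

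Values below are log2 levels as deposited, differences are Hira-null minus WT on the log2 scale with the standard error (SE) from limma, and SD is over n = 3 arrays. Adjusted p is Benjamini-Hochberg's over the 25142 probe sets with limma. Levels of different probe sets are not compared with each other, because probes differ in how strongly they bind. Hira itself read 7.49, 7.86 and 7.83 in the WT arrays against 7.40, 7.05 and 6.81 in the Hira-null arrays, a difference of -0.64 (SE 0.19, adjusted p = 0.352), without overlap between the lines. Which part of Hira was removed is not stated, so this probe set may or may not read the altered part.

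None of the 10 probe sets of the neighbours passed the test, with adjusted p from 0.344 to 0.988. The share that passed over all probe sets was 0.00398% (1 of 25142, lower in Hira-null arrays), so a count of 0 among 10 is near the background. At an unadjusted p under 0.05 there was 1 of the 10, Trmt2a, which was lower, where the shares over all probe sets were 6.06% lower and 4.06% higher. Lower values without overlap between the lines were seen for 3 of the 10 (Trmt2a, Cdc45 and Zdhhc8), where the share over all probe sets was 8.17%, and higher values without overlap for 0 of the 10, where it was 7.09%. The difference was below 0 for 8 of the 10, against 49.0% of all probe sets. Because the genes were listed with earlier results of these data known, these counts beside the shares are a description and not a test. With 1 probe set for each gene, the median over the 9 genes was -0.05, against -0.01 over 15199 genes. That median is the value of the Gnb1l probe set 10434224, which has the higher mean. With the other Gnb1l probe set, 10434211 (-0.24), in its place, the middle value would be that of Mrpl40, -0.20. The 95% intervals of the 10 differences ran from -0.85 at the lowest end to 0.67 at the highest, so all 10 lay above -1, which is a halved signal on this scale. They describe array signal and not the amount of RNA, and they rest on variation among arrays that may be technical. Smaller changes in either direction could be missed with 3 arrays a line.

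**Figure D1:**
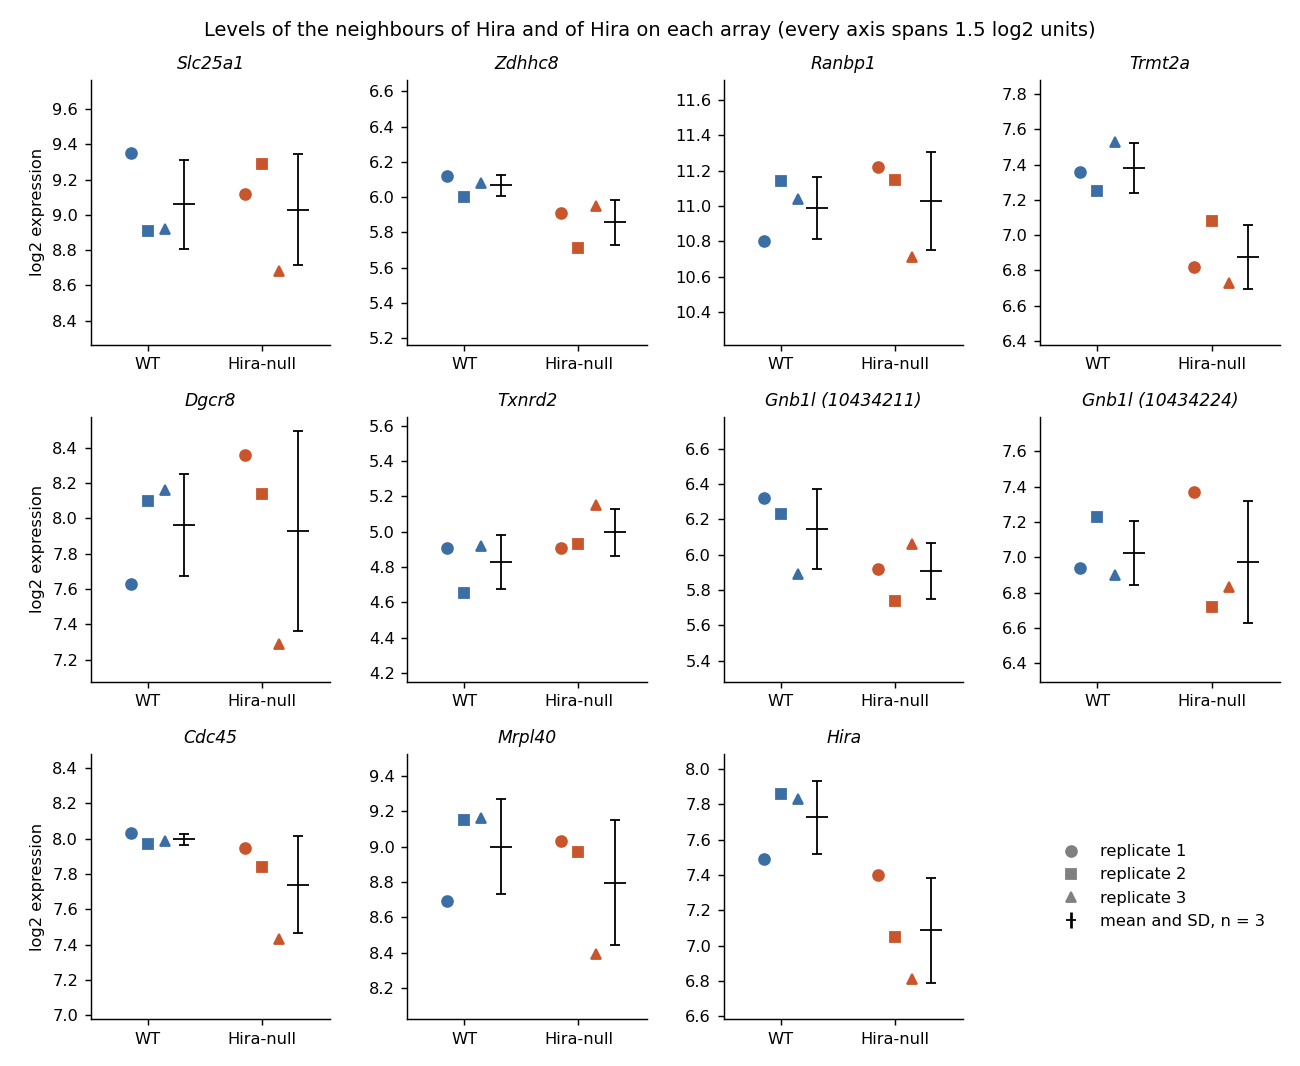
Log2 expression (vertical axis, a span of 1.5 log2 units in every panel) of the 10 probe sets of the neighbours and of Hira in WT and Hira-null arrays, with 1 point for each array, a shape for each replicate number, and the mean and SD of 3 arrays in black. Trmt2a reads 7.25 to 7.53 in WT and 6.73 to 7.08 in Hira-null arrays, without overlap, while Dgcr8 reads 7.29 to 8.36 in Hira-null arrays and spans the WT values.

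Trmt2a, the methyltransferase that makes 5-methyluridine in transfer RNA, had the largest difference of the neighbours. It read 7.36, 7.25 and 7.53 in the WT arrays against 6.82, 7.08 and 6.73 in the Hira-null arrays. All 3 Hira-null arrays lay below all 3 WT arrays, with the nearest values 7.08 and 7.25. The means were 7.38 ± 0.14 and 6.88 ± 0.18 (SD, n = 3), a difference of -0.50 (SE 0.15, 95% interval -0.85 to -0.15), or 1.42-fold lower, and the adjusted p from limma was 0.344. Its size exceeded that of 90.2% of probe sets tested. Leaving out any single array moved it between -0.61 and -0.43, with adjusted p from 0.291 to 0.668. The other transfer RNA methyltransferases fixed as a list had 16 genes tested, a median of 0.01 and 0 called, with 1 lower and 0 higher at an unadjusted p under 0.05, where the shares over all genes were 6.29% lower and 4.17% higher. That gene was Trmt1 (-0.68, SE 0.12, adjusted p = 0.220), which modifies guanosine and lies on chromosome 8. Trmt2b, the mitochondrial paralog of Trmt2a, stood at -0.44 (SE 0.19, adjusted p = 0.503), and Mettl1, which methylates guanosine in transfer RNA, at 0.51 (SE 0.23, adjusted p = 0.512). Lower values without overlap were seen for 2 of the 16, Trmt1 and Trmt2b, and higher ones for 0. The shares over all genes were 9.55% and 7.8%.

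The genes whose pattern over the 6 arrays was most like that of Trmt2a were found by the root mean square difference between values centred on each gene's own mean. They were sought among 14465 genes, leaving out predicted genes with Gm and Rik names. A small distance from Trmt2a by itself requires lower values in Hira-null arrays. Larp1, an RNA-binding regulator of translation, was nearest at 0.06. It was followed by the oxoglutarate carrier gene Slc25a11 at 0.07, Strada at 0.07, Snapc2 at 0.07 and the replication licensing gene Cdt1 at 0.07. The median over the genes compared was 0.34. These are distances in log2 units. Larp1, Slc25a11 and Strada lie on chromosome 11, and Snapc2 and Cdt1 lie on chromosome 8. Genes of chromosomes 8 and 11 make up 14.2% of those tested, and their median differences were -0.27 and -0.24. None of the 5 passed the test (adjusted p from 0.257 to 0.393), and Trmt2a itself lies on chromosome 16.

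Ranbp1, which starts back to back with Trmt2a, read 10.80, 11.14 and 11.04 in the WT arrays against 11.22, 11.15 and 10.71 in the Hira-null arrays. The lines overlapped fully, and the Hira-null arrays held both the highest and the lowest value. The difference was 0.03 (SE 0.18, 95% interval -0.39 to 0.46, adjusted p = 0.978). After centring each gene on its mean, Trmt2a minus Ranbp1 was 0.44, -0.01 and 0.37 in the WT arrays against -0.52, -0.19 and -0.10 in the Hira-null arrays. The Hira-null arrays were all lower for this quantity, by -0.54 on average, and the exact two-sided permutation test gave p = 0.1, which is the lowest value this design can reach (0.2 with Benjamini-Hochberg adjustment over 4 pairs compared). Trmt2a alone already separated the lines (-0.50), so this result cannot show how the genes of the pair relate. The genes of the Ran cycle had 0 of 10 called and a median of 0.01. At an unadjusted p under 0.05 there were 0 in either direction, where the shares over all genes were 6.29% lower and 4.17% higher. Ran stood at 0.10 (SE 0.12), the activating protein gene Rangap1 at 0.09 (SE 0.14) and the exchange factor gene Rcc1 at -0.36 (SE 0.24). The importin genes Kpna2 (-0.48, SE 0.26) and Kpnb1 (-0.28, SE 0.14) lie on chromosome 11. Lower values without overlap were seen for 2 of the 10, Kpna2 among them, and higher ones for 0. The shares over all genes were 9.55% and 7.8%. Without Hira-null replicate 3 the difference was -0.09 for Rcc1, -0.17 for Kpna2 and -0.24 for Kpnb1.

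**Figure D2:**
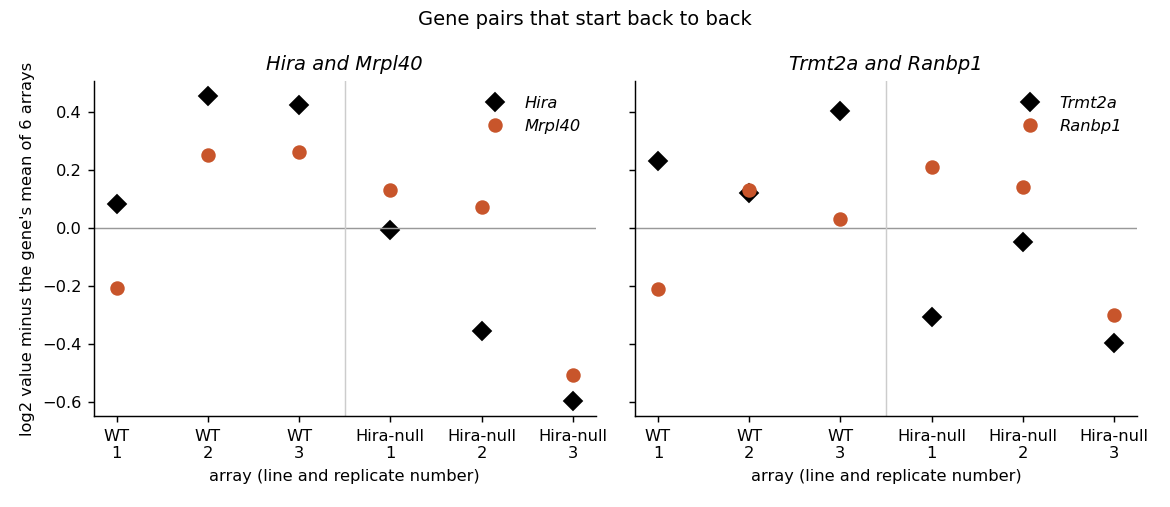
Log2 value minus the gene's own mean of 6 arrays (vertical axis) for Hira with Mrpl40 and for Trmt2a with Ranbp1, by array (horizontal axis), 1 point for each gene and array. In all 3 Hira-null arrays Hira lies below Mrpl40 and Trmt2a below Ranbp1. In WT arrays Hira lies above Mrpl40, and Trmt2a lies above Ranbp1 in replicates 1 and 3 and within 0.01 of it in replicate 2.

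Mrpl40, the immediate neighbour of Hira, read 8.69, 9.15 and 9.16 in the WT arrays against 9.03, 8.97 and 8.39 in the Hira-null arrays. WT replicate 1 and Hira-null replicate 3 were the low arrays, and the lines overlapped. The means were 9.0 ± 0.27 and 8.80 ± 0.35 (SD, n = 3), a difference of -0.20 (SE 0.22, 95% interval -0.73 to 0.32, adjusted p = 0.847). Without Hira-null replicate 3 the difference was 0.00. Hira minus Mrpl40, each centred on its mean, was 0.29, 0.20 and 0.16 in the WT arrays against -0.14, -0.43 and -0.09 in the Hira-null arrays, a difference of -0.44 without overlap (exact two-sided permutation test, p = 0.1, the smallest possible, and 0.2 adjusted over the 4 pairs). Hira alone, the disrupted gene, already separated the lines (-0.64), so this result cannot show how the genes of the pair relate. The other genes with Mrpl symbols, which encode proteins of the same ribosomal subunit, had 47 tested, a median of -0.09 and 0 called. At an unadjusted p under 0.05 there were 7 lower and 0 higher (14.9% and 0%), where the shares over all genes were 6.29% and 4.17%, and 5 of the 7 lie on chromosomes 8 and 11. Without those chromosomes the median was -0.03. Lower values without overlap were seen for 8 of the 47 and higher ones for 2, where the shares over all genes were 9.55% and 7.8%. Mrpl35 (-0.81, SE 0.16, adjusted p = 0.233), on chromosome 6, had the smallest p of the list, followed by Mrpl10 (-0.58, SE 0.12) and Mrpl22 (-0.67, SE 0.14) on chromosome 11.

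Cdc45 read 8.03, 7.97 and 7.99 in the WT arrays against 7.95, 7.84 and 7.43 in the Hira-null arrays. The WT arrays lay within 0.06 of each other and the lines did not overlap, but the nearest values, 7.97 and 7.95, almost met, and Hira-null replicate 3 was far below the rest. The means were 8.0 ± 0.03 and 7.74 ± 0.27 (SD, n = 3), a difference of -0.26 (SE 0.16, 95% interval -0.64 to 0.13, adjusted p = 0.672). Without Hira-null replicate 3 it was -0.10. Ufd1, which starts back to back with Cdc45 and helps to extract ubiquitinated proteins from complexes, stood at 0.08 (SE 0.19). For this pair, Ufd1 minus Cdc45 overlapped between the lines (exact two-sided permutation test, p = 0.2, adjusted 0.267). Genes of replication origin firing, the step at which Cdc45 joins the MCM helicase, had 20 tested, a median of -0.08 and 0 called, with 2 lower and 0 higher at an unadjusted p under 0.05, where the shares over all genes were 6.29% and 4.17%. Those 2 were Cdt1 (-0.59, SE 0.14, adjusted p = 0.257) and Gins4 (-0.57, SE 0.17, adjusted p = 0.344), both on chromosome 8, and the median without chromosomes 8 and 11 was 0.01. Lower values without overlap were seen for 4 of the 20, where the share over all genes was 9.55%. Cdc6, which helps to load the MCM helicase and lies on chromosome 11, had the largest difference of the 20, -0.78 (SE 0.33, adjusted p = 0.495) without overlap, and stood at -0.40 without Hira-null replicate 3. Mcm2 stood at 0.02 (SE 0.16), Mcm7 at 0.09 (SE 0.19) and Gins1 at -0.20 (SE 0.29), the last at 0.115 without Hira-null replicate 3.

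Dgcr8, the RNA-binding partner of Drosha, varied more between arrays than any other of the 10 probe sets. It read 7.63, 8.10 and 8.16 in the WT arrays against 8.36, 8.14 and 7.29 in the Hira-null arrays, a range of 1.07. WT replicate 1 and Hira-null replicate 3 were the low arrays, and the other 4 lay between 8.10 and 8.36. The difference between the lines was -0.03 (SE 0.30, 95% interval -0.74 to 0.67, adjusted p = 0.988), the widest interval of the neighbours, and it was 0.29 without Hira-null replicate 3. Dgcr8 and Trmt2a are transcribed towards each other and overlap at their 3′ ends in the annotation, and which bases the probes read was not examined. Trmt2a minus Dgcr8 overlapped between the lines (exact two-sided permutation test, p = 0.3, adjusted 0.3). Genes of microRNA processing had 0 of 9 called and a median of 0.05. At an unadjusted p under 0.05 there were 0 in either direction, where the shares over all genes were 6.29% lower and 4.17% higher. Drosha stood at 0.05 (SE 0.16). The helicases Ddx17 (0.31, SE 0.14, adjusted p = 0.503) and Ddx5 (-0.22, SE 0.12, adjusted p = 0.620), which help Drosha with some precursors, showed no overlap between the lines, the first higher and the second lower in Hira-null arrays, and Ddx5 lies on chromosome 11. That is 1 lower and 1 higher of the 9, where the shares over all genes without overlap were 9.55% and 7.8%. The Argonaute gene Ago1 stood at -0.50 (SE 0.28, adjusted p = 0.615), and at -0.19 without Hira-null replicate 3.

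The 3 mitochondrial and lipid-related genes Slc25a1, Txnrd2 and Zdhhc8 showed differences of -0.03, 0.17 and -0.21. Slc25a1, the citrate carrier, read 9.35, 8.91 and 8.92 in the WT arrays against 9.12, 9.29 and 8.68 in the Hira-null arrays, with WT replicate 1 the highest array, Hira-null replicate 3 the lowest and the lines overlapping (SE 0.21, 95% interval -0.52 to 0.46, adjusted p = 0.984). Citrate exported by this carrier is cleaved by ATP citrate lyase to make acetyl-CoA for fatty acids and sterols. The list of citrate and acetyl-CoA genes had 11 tested, a median of -0.26 and 0 called, with 3 lower (Slc25a11, Acly and Slc25a10) and 0 higher at an unadjusted p under 0.05, where the shares over all genes were 6.29% lower and 4.17% higher. Lower values without overlap were seen for 4 of the 11 and higher ones for 0, where the shares over all genes were 9.55% and 7.8%. The 3 genes at an unadjusted p under 0.05 all lie on chromosome 11, and without the 5 members on chromosomes 8 and 11 the median was 0.00. Acly, the lyase gene, stood at -0.72 (SE 0.25, adjusted p = 0.409), and at -0.42 without Hira-null replicate 3.

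Txnrd2 read 4.91, 4.65 and 4.92 in the WT arrays against 4.91, 4.93 and 5.15 in the Hira-null arrays. Hira-null replicate 3 was the highest array and WT replicate 2 the lowest, and 4 arrays lay between 4.91 and 4.93. The difference was 0.17 (SE 0.14, 95% interval -0.16 to 0.50, adjusted p = 0.767), and it was 0.08 without WT replicate 2. This probe set lies near the array medians of 4.93 to 5.02. Other thioredoxin and mitochondrial redox genes had 0 of 11 called and a median of 0.05. At an unadjusted p under 0.05 there were 1 lower and 0 higher, where the shares over all genes were 6.29% and 4.17%. Without overlap between the lines there were 1 lower and 2 higher (Glrx2 and Txn2), where the shares over all genes were 9.55% and 7.8%. The 1 lower gene was the same by both counts. That gene was the glutathione reductase gene Gsr (-0.93, SE 0.18, adjusted p = 0.233), on chromosome 8. Txn2, the mitochondrial thioredoxin that Txnrd2 reduces, stood at 0.26 (SE 0.13, adjusted p = 0.569) without overlap between the lines, its peroxidase Prdx3 at -0.13 (SE 0.14) and the cytosolic reductase Txnrd1 at -0.01 (SE 0.13).

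Zdhhc8 read 6.12, 6.0 and 6.08 in the WT arrays against 5.91, 5.71 and 5.95 in the Hira-null arrays. The lines did not overlap, with 6.0 and 5.95 as the nearest values, and the difference of -0.21 (SE 0.13, 95% interval -0.51 to 0.09) had an adjusted p of 0.649. Other palmitoyltransferase genes had 21 tested, a median of 0.02 and 0 called. At an unadjusted p under 0.05 there was 1 lower, Zdhhc23 (-0.36, SE 0.15, adjusted p = 0.491), and 1 higher, Zdhhc4 (0.50, SE 0.16, adjusted p = 0.373). That is 4.76% in each direction, near the shares over all genes of 6.29% lower and 4.17% higher. Higher values without overlap were seen for 6 of the 21, where the share over all genes was 7.8%. Lower values without overlap were seen for 1, where it was 9.55%.

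Gnb1l had 2 probe sets, which differ in size but not in the outcome of the test. The probe set 10434211, which is annotated with RefSeq transcripts, read 6.32, 6.23 and 5.89 in the WT arrays against 5.92, 5.74 and 6.06 in the Hira-null arrays, a difference of -0.24 (SE 0.16, 95% interval -0.63 to 0.15, adjusted p = 0.698). The probe set 10434224, annotated with a single cDNA clone, read 6.94, 7.23 and 6.90 in the WT arrays against 7.37, 6.72 and 6.83 in the Hira-null arrays, a difference of -0.05 (SE 0.20, adjusted p = 0.967). The lines overlapped in both, and the array that was highest in the second, Hira-null replicate 1, was in the middle of the first. The kinases of the PIK-like family and the TTT complex had 0 of 9 called and a median of 0.06. At an unadjusted p under 0.05 there were 0 in either direction, where the shares over all genes were 6.29% lower and 4.17% higher. Of the TTT genes, Telo2 stood at -0.06 (SE 0.15), Tti1 at -0.07 (SE 0.18) and Tti2, on chromosome 8, at -0.40 (SE 0.24).

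Among the 9 genes, 1 array stood apart from the rest. Hira-null replicate 3 was the lowest of the 6 arrays for 6 of the 9 genes and below the gene's mean for 8 of 9, with a median deviation of -0.37 from the genes' means. The medians of the other 5 arrays lay between -0.0017 and 0.12. Dgcr8 was furthest below its mean there, at -0.66, followed by Mrpl40 at -0.51 and Cdc45 at -0.44, whereas Txnrd2 was at 0.24. Dgcr8, Ranbp1 and Mrpl40 were also below their means in WT replicate 1, at -0.32, -0.21 and -0.21. Hira-null replicate 3 also had the lowest median deviation of the 6 arrays for 7 of the 9 lists of related genes. They were origin firing (-0.42), transfer RNA methylation (-0.275), the Ran cycle (-0.24), the Mrpl genes (-0.24), microRNA processing (-0.16), the TTT and PIK-like kinase genes (-0.115) and the redox genes (-0.10), and the exceptions were the citrate genes (-0.05) and the palmitoyltransferases (0.04). The ES cell markers were also lowest there (-0.125). Without Hira-null replicate 3 the median difference over the 9 genes was 0.02, Trmt2a stood at -0.43 and Zdhhc8 at -0.26, and Slc25a1 and Dgcr8 had positive differences (0.145 and 0.29).

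**Figure D3:**
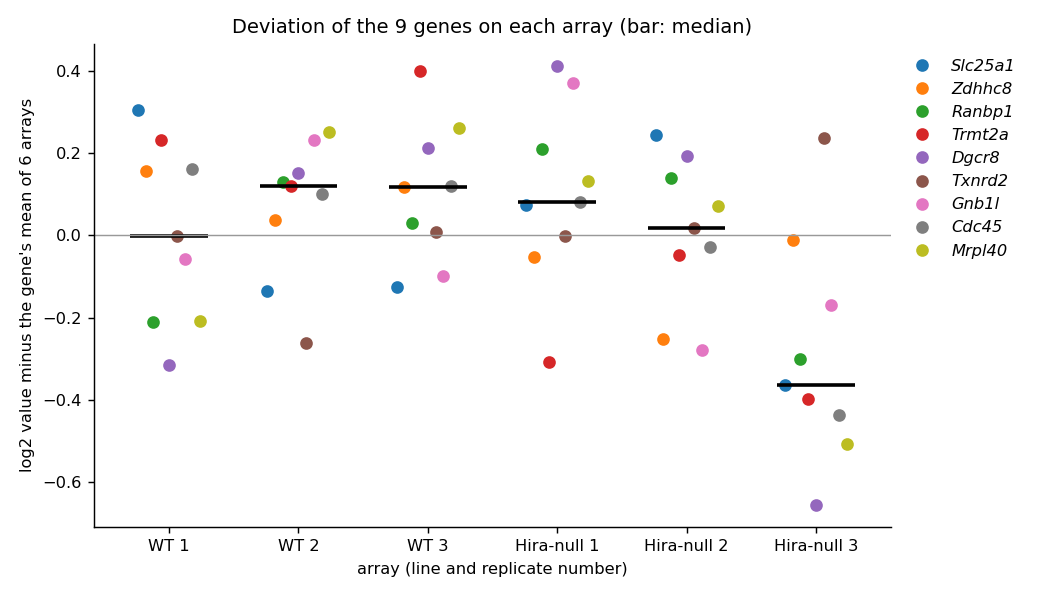
Log2 value minus the gene's own mean of 6 arrays (vertical axis) for the 9 neighbours on each array (horizontal axis), 1 colour for each gene and a black bar at the median of the 9. The bar lies at -0.37 in Hira-null replicate 3 and between -0.0017 and 0.12 in the other arrays.

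Markers of cell type were read on the same arrays. All 8 ES cell markers were measured, and Pou5f1 read 10.91 to 11.58 and Nanog 10.70 to 11.12 over the 6 arrays. Summed on the linear scale, the ES cell markers came to 13.65 to 13.74 in WT and 13.55 to 13.93 in Hira-null arrays in log2 units. Each such sum takes every marker with a probe set, also those under the filter. The keratins Krt8 and Krt18, of simple epithelia and trophectoderm, were highest in the 2 arrays where Dgcr8 and Mrpl40 were lowest. Krt18 read 9.22 in WT replicate 1 and 10.20 in Hira-null replicate 3, against 7.19 to 7.63 in the other 4 arrays. These keratins were picked after their values were seen, and the other trophectoderm markers past the filter were mixed. Tfap2c, a trophoblast transcription factor gene, read 7.40 in WT replicate 1 and 7.32 in Hira-null replicate 3, against 6.88 to 6.96 in the other 4 arrays. Eomes was lowest in WT replicate 1 (4.77) and next lowest in Hira-null replicate 3 (4.92), against 5.04 to 5.82 in the other arrays. Cdx2 was also lowest in WT replicate 1, at 4.32, and read 4.64 in Hira-null replicate 3. The summed trophectoderm list, with 5 of 6 markers past the filter, ran over 9.42 to 10.60 in WT and 9.18 to 11.35 in Hira-null arrays. Without Krt8 and Krt18 the sum of the other 4 markers ran over 7.56 to 7.82 in WT and 7.68 to 7.81 in Hira-null arrays, so most of the spread of the first sum is that of the keratins. The summed fibroblast list (7 of 8 past the filter) ran over 11.15 to 11.84 in WT and 11.10 to 11.57 in Hira-null arrays, and the primitive endoderm list (8 of 8) over 9.60 to 10.12 and 8.93 to 9.35. Of the 7 fibroblast markers, 2 were lower and 1 higher at an unadjusted p under 0.05 (limma), with a median of -0.39 and 0 called. Without overlap there were 3 lower and 1 higher. Of the 8 ES cell markers, 0 were lower and 1, Klf4 (0.41, SE 0.13, adjusted p = 0.377), was higher, by either count. The 5 trophectoderm markers had 0 by either count. Of the 8 primitive endoderm markers, 4 were lower and 0 higher at an unadjusted p under 0.05 (limma). Their median was -0.39 and 0 were called. Lower values without overlap were seen for 4 of the 8 and higher ones for 0. The shares over all genes were 6.29% lower and 4.17% higher at that p, and 9.55% and 7.8% without overlap. Of the defining markers, Elf5 and Postn fell under the filter and Cdx2 read 4.32 to 4.70. The part of these in the values of the neighbours was not tested. In bulk RNA, fewer cells of a type and less RNA per cell cannot be told apart.

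Along the region, the 9 genes and 16 others of a fixed list with a probe set of their own gave 25 genes beside Hira. Their median difference was -0.03, 14 of 25 were below 0, 0 were called and 1 (Trmt2a) had an unadjusted p under 0.05. Over all genes 7714 of 15199 were below 0, and the shares at that p were 6.29% lower and 4.17% higher. The 16 other genes had a median of 0.00 and differences from -0.16 to 0.20, and the lines overlapped for all 16. The lines did not overlap for 3 of the 25, all lower and all among the 9. The shares over all genes were 9.55% lower and 7.8% higher. Of the 16, 9 lie directly next to a described gene in the order of measured genes, with a median of 0.04. They were Gsc2 (0.01), Vpreb2 (-0.09), Rtn4r (0.17), Tango2 (0.02), Arvcf (0.20), Tbx1 (0.06), Cldn5 (0.00), Ufd1 (0.08) and 2510002D24Rik (0.04). The splicing-related Ess2, which lies beyond Gsc2, stood at -0.15. Mir185, measured between Tango2 and Arvcf at -0.10, was not on the list and is not among the 25. Apart from Hira, Trmt2a had the lowest value within 25 genes on either side of it, where differences ran from -0.50 to 0.52 with a median of 0.02. Over the 465 genes of chromosome 16 the median was 0.00 and 48.6% were below 0. With the chromosome in 10 segments of equal gene number, the segment that holds Hira had a median of 0.03, within the range of -0.12 to 0.09 over the segments.

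**Figure D4:**
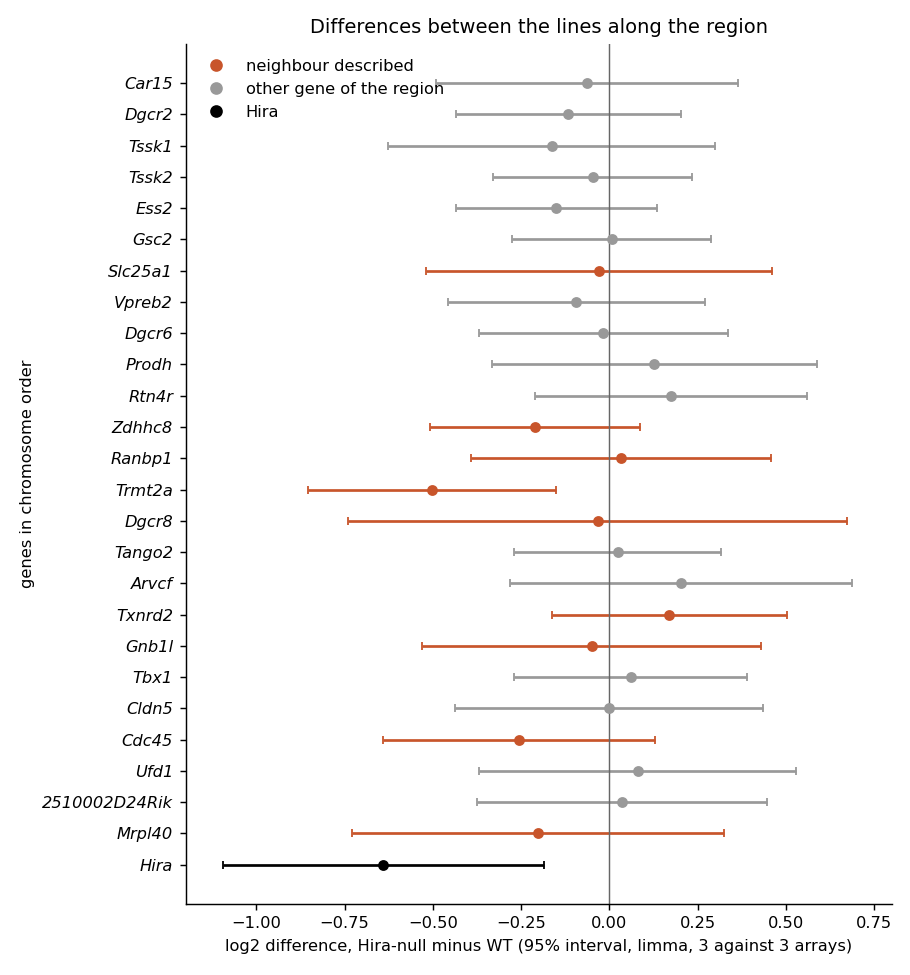
Log2 difference, Hira-null minus WT (horizontal axis), with its 95% interval from limma on 3 against 3 arrays, for the listed genes of the region in chromosome order (vertical axis), Gnb1l by its probe set with the higher mean. The intervals of Trmt2a (-0.85 to -0.15) and Hira (-1.09 to -0.19) lie below 0, and those of the other 24 genes include 0.

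**Figure D5:**
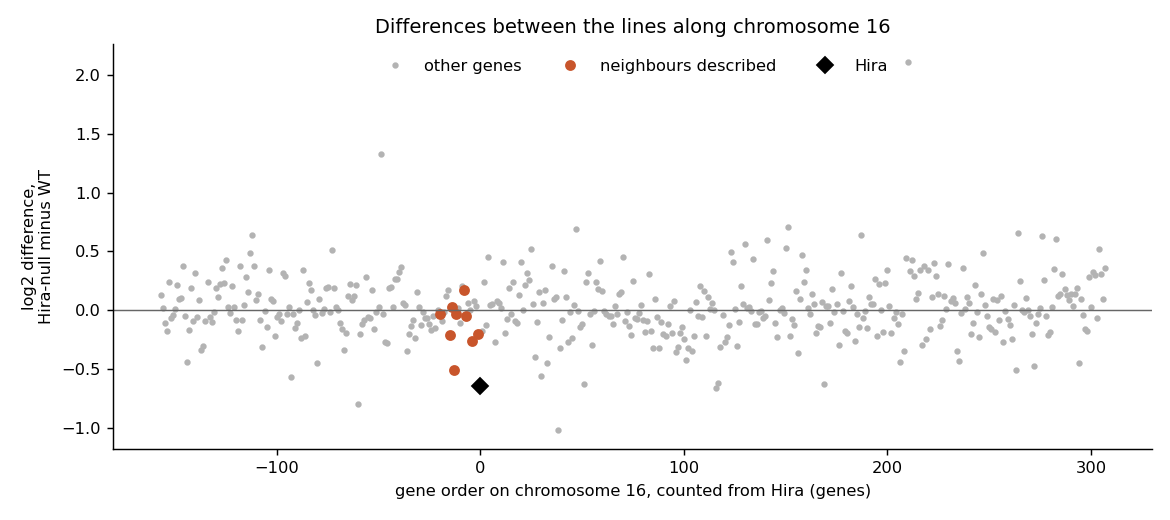
Log2 difference, Hira-null minus WT (vertical axis), for the 465 genes of chromosome 16 in order (horizontal axis, counted in genes from Hira), 1 point for each gene. The described neighbours lie between -0.50 and 0.17, within the spread of the other genes, and the median over the chromosome is 0.00.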

How the data were processed

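The authors deposited 1 table of log2 expression, with 35557 probe sets and 6 arrays. The authors made these log2 values with GCRMA, a background correction and normalization method, per the submitters' processing notes, with no version. The genome build behind them is not given in the sources used here. Values run from 1.14 to 14.03 and array medians from 4.93 to 5.02, so they were used as deposited, and a change common to most genes is not visible. The platform's probe table gave 21789 probe sets 1 symbol, 1621 several and 12147 none; symbols were updated by Entrez identifier through a GRCm38.p6 gene table, which matched 21698.

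Probe sets with at least 3 arrays above 3.78 (the 30th percentile of all values) were fitted with limma 3.58.1 in R 4.3.3 (lmFit, eBayes, two-sided, no covariates), Hira-null minus WT, with Benjamini-Hochberg adjustment over 25142 probe sets and a threshold of 0.05. The fit was tested on simulated data. Lists used 1 probe set per gene, that with the highest mean. Named are the 9 genes, Hira, the measured genes next to them, Ess2, up to 3 genes with the smallest p in each list and fixed partners, with the 5 genes most like Trmt2a; Krt8, Krt18, Tfap2c and Eomes were named after their values were seen. The genes and lists were chosen with earlier results of these data known. The gene lists are background knowledge; no set test was run. Pairs of genes were compared by exact permutation over arrays. The precision is limited by the number of arrays, with a median SE of 0.17 over all probe sets. Alternatives were 2 other filters, quantile normalization, median centring, 2 other variance models, array weights, the replicate number as a block and leaving out arrays.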

Additional observations from a re-analysis of the deposited data

How the results depend on the processing

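Of the 10 probe sets, 0 were called under all 15 alternatives, and 133 of the 149 differences computed for them kept the direction reported, 15 turned and 1, that of Mrpl40 without Hira-null replicate 3, was 0. Trmt2a, Cdc45, Zdhhc8, Txnrd2 and the Gnb1l probe set 10434211 had no reversal. Directions turned for differences near 0: leaving out 1 array gave -0.25 to 0.29 for Dgcr8, -0.063 to 0.19 for Ranbp1, -0.16 to 0.145 for Slc25a1 and -0.25 to 0.077 for the Gnb1l probe set 10434224. With arrayWeights Slc25a1 stood at 0.17 and Dgcr8 at 0.050, and with WT replicate 1 and Hira-null replicate 3 both left out at 0.29 and 0.12. The mean of both Gnb1l probe sets was -0.145, and with that value for Gnb1l it would also be the median over the 9 genes. The median over the 9 genes was -0.13 with the stricter filter, which leaves out Txnrd2, and -0.25 to 0.022 when 1 array was left out. Hira ranged from -0.80 to -0.50. Over all probe sets, 1 was called as reported, 5 with arrayWeights, 2 with median centring, 2 with the stricter filter, 0 with the replicate block, 0 with those 2 arrays left out, and 0 to 41 when 1 array was left out, with 41 without Hira-null replicate 2. At an unadjusted p under 0.05 limma gave 2546. The cause of these shifts was not tested.

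Arrays with the same replicate number had correlations of deviations of -0.34, 0.17 and -0.10 over probe sets. With 3 arrays a line such correlations are tied to each other. They cannot settle whether arrays of the same number shared a culture or batch. Arrays with different numbers correlated more, WT replicate 1 with Hira-null replicate 3 at 0.44 and WT replicate 2 with Hira-null replicate 1 at 0.36. With the replicate block Trmt2a stayed at -0.50 (limma, adjusted p = 0.557).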

Other observations

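Further out on chromosome 16, beyond the genes around Hira, 14 genes of a fixed list were measured, with 0 called, a median of -0.07 and 10 of 14 below 0. Over all genes 7714 of 15199 were below 0. At an unadjusted p under 0.05 there were 0 in either direction (limma), where the shares over all genes were 6.29% lower and 4.17% higher. Aifm3, a gene of the apoptosis-inducing factor family, stood at -0.34 (SE 0.17, adjusted p = 0.563). It was the 1 gene of this list whose lines did not overlap, lower in Hira-null arrays. The shares over all genes without overlap were 9.55% lower and 7.8% higher, so 1 of 14 is near the background. Pi4ka, a phosphatidylinositol kinase gene, stood at 0.37 (SE 0.24, adjusted p = 0.687), and Lztr1 at -0.20 (SE 0.15, adjusted p = 0.740).

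Over the 36 pairs of the 9 genes, the values centred on each gene's mean were closest for Ranbp1 and Mrpl40, with a root mean square difference of 0.14 over the 6 arrays, followed by Dgcr8 and Mrpl40 at 0.15 and Cdc45 and Mrpl40 at 0.18. Ranbp1 and Trmt2a, whose start sites are 189 bases apart, were at 0.33. The order of these distances has no test.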
